A study of Homo sapiens with 28 samples.

Results

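This account covers the response of A549 cells to TGF-β1, read from 8 of the study's 28 RNA libraries. A549 is a human lung adenocarcinoma line, and the cells used here carried MGT#1-mVenus, a reporter that makes the fluorescent protein mVenus. By their labels, 5 libraries came from cells kept with TGF-β1 at 5 ng/ml for 11 days and then sorted into a gate of low mVenus (libraries A and C) or high mVenus (libraries A, B and C). The label of the low-gate library A gives the dose without the full unit, as ng/m. Low-gate library B was not analysed here. The other 3 libraries (A, B and C) came from naive cells of the same line with the same reporter, which were not sorted, so that treatment and sorting cannot be told apart in any difference between them. Another 5 sorted libraries, from A549 cells kept for 11 days with 5 µM GSK126, an inhibitor of the histone methyltransferase EZH2, share the fit and are set beside the main values. All groups are 1 cell line, and no label says whether the lettered libraries are separate cultures, so p-values measure the spread between these libraries.

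TGF-β1 is a secreted cytokine that is stored in the matrix bound to latency proteins. Once released, it joins type II and type I serine/threonine kinase receptors, which phosphorylate SMAD2 and SMAD3. These enter the nucleus with SMAD4 and act with partner factors on target genes, among them inhibitors of the pathway itself. In carcinoma cells of epithelial origin the cytokine is known for epithelial-mesenchymal transition (EMT), in which cells give up junctions and gain matrix, contractile and migratory genes, and for slowing the cell cycle. A549 cells are also known for mutant KEAP1, which leaves the antioxidant factor NRF2 active, and for genes of mucous and liver-like secretion.

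Total counts ran from 3004125 to 9550143 in the treated libraries and from 6559146 to 6915146 in the naive ones. Levels are given in CPM (a gene's counts scaled to the total of its library), and fold changes come from a fit that rescales the libraries, so the ratio of CPM values exceeds the fitted fold by 0.17 on the log2 scale. CDKN2A, which A549 is known to have lost, had 0 counts in all 13 A549 libraries; over the 8 compared libraries this allows up to 0.0582 CPM. The keratin KRT18 of simple epithelium stood at 691 CPM or more in all 8, whereas the leukocyte, endothelial and red cell genes summed to 10.6 to 65.1 CPM in naive and 12.98 to 109.7 CPM in treated libraries. Olfactory receptor genes, silent in such cells, give the level of background: the 374 of them summed to 305 CPM in TGF-β1 high library B and 195 CPM in naive library A, and to between 6.66 and 121 CPM in the other 6 libraries. These 2 libraries are called background-rich here, and results were also computed without them. The reporter transcript stood at 465 to 500 CPM in naive, 997 to 1135 CPM in low-gate and 1847 to 3121 CPM in high-gate libraries.

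The comparison asked which genes differed after prolonged exposure to TGF-β1, with both gates weighted equally. In edgeR's quasi-likelihood test 3821 of 19842 genes passed an adjusted p of 0.05, which is 19.3% of those tested. Of these 1542 were higher (7.77% of all tested) and 2279 were lower (11.5%). At least 2-fold changes made up 1067 of the higher (5.38% of all tested) and 1264 of the lower genes (6.37%). The treated and naive libraries did not overlap in 3478 of the called genes; over all tested genes 14.6% were higher and 12.7% lower without overlap. The median log2 fold change of all genes was 0.05. When only 11010 coding genes of at least 5 CPM were tested, 4511 passed, 2117 higher and 2394 lower. These shares were larger than those over all genes, beside which list counts are set here. In bulk RNA a lower level can mean fewer cells that express a gene or less of its RNA per cell, and these cannot be told apart.

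**Figure D1:**
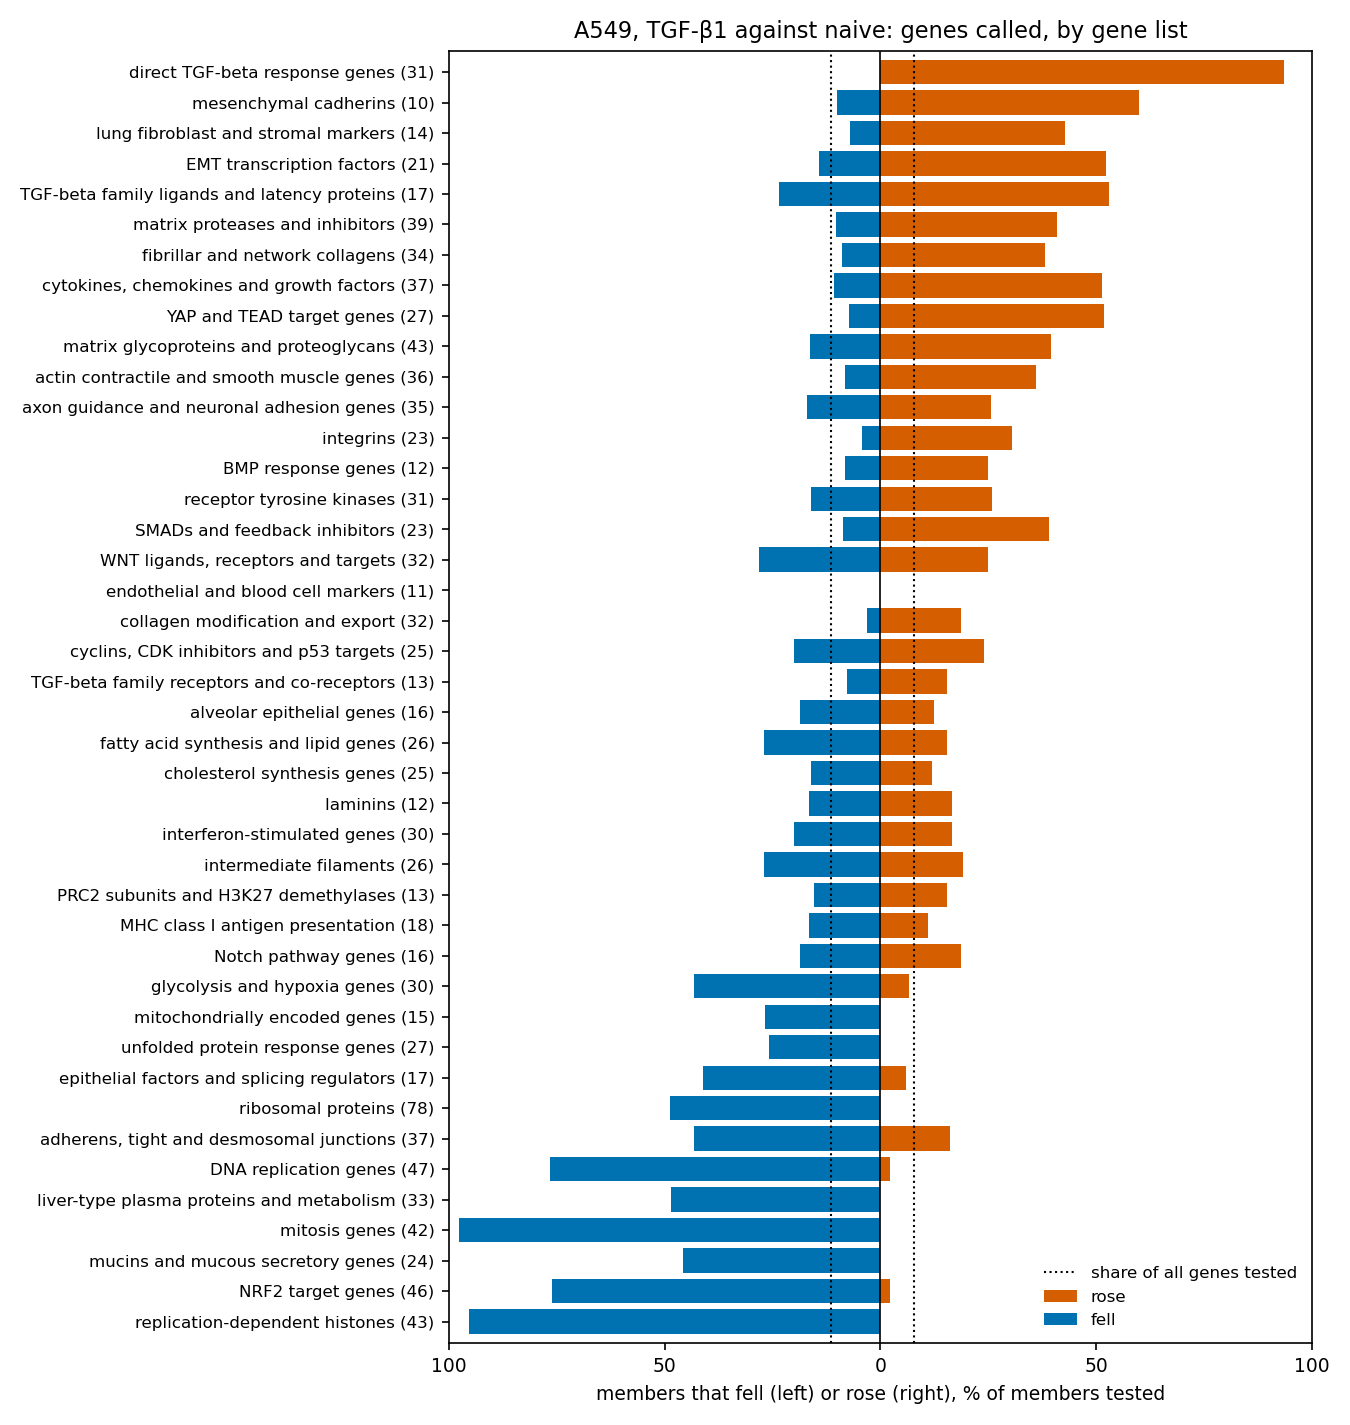
Share of the tested members of each of 42 gene lists that rose (right, orange) or fell (left, blue) in A549 under TGF-β1 against naive cells, as a percentage of members tested (number in brackets), ordered by the median log2 fold change of the list. Dotted lines mark the shares of all genes tested, 7.77% higher and 11.5% lower. The shares were larger among 11010 coding genes of at least 5 CPM, with 2117 higher and 2394 lower. Direct TGF-β response genes stand at the top with 29 of 31 risen, and replication-dependent histones at the bottom with 41 of 43 fallen.

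Genes that TGF-β is known to switch on directly were far higher in treated cells: 29 of 31 tested members of the list rose and 0 fell, with a median log2 fold change of 3.70. IL11 (chromosome 19, 55364389 to 55370463, GRCh38), a cytokine of the interleukin-6 family, measured 125 and 113 CPM in the low gate, 186, 125 and 137 CPM in the high gate and 0.725, 0.434 and 0.610 CPM in naive cells. Every treated library was far above every naive one, and the gates differed little beside that gap. The fitted log2 fold change was 7.64 ± 0.34 (SE; edgeR adjusted p = 1.22e-11). The cell cycle inhibitor CDKN1A (4.10 ± 0.33), the matricellular protein CCN2 (3.88 ± 0.28), the matrix adhesion protein TGFBI (3.27 ± 0.28) and the AP-1 subunit JUNB (2.20 ± 0.35) were among the other members that rose. The member MMP10, a matrix protease, did not pass the test (2.35 ± 1.20, edgeR adjusted p = 0.219).

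The promoter of IL11 is shown because AP-1 and SMAD factors are known to act on TGF-β target genes. It is the 250 bases before the annotated start in RefSeq (GRCh38.p14, chr19:55370464-55370713, minus strand), written 5′ to 3′, with capitals at the AP-1 letters TGANTCA and at the SMAD letters CAGAC on either strand.
IL11: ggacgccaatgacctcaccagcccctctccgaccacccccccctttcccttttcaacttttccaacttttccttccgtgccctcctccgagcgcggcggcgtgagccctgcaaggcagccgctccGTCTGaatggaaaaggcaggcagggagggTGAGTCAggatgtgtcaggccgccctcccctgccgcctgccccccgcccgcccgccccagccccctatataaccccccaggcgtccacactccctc
The AP-1 match lies 96 to 90 bases before the start and the SMAD match, read on the other strand, 125 to 121 bases before it. Both are descriptions of these letters and do not show binding. CAGAC occurs in 37.8% of the 27305 promoters of the table and in 8 of the 22 promoters found for the direct response list (36.4%), and TGANTCA in 6.60% of all and 2 of 22 on the list.

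The ligands of the family and the proteins that hold them in the matrix split into genes that rose and genes that fell. Of 17 tested members 9 rose and 4 fell. INHBA, the activin A subunit, stood at 173 and 128 CPM in the low gate, 422, 319 and 335 CPM in the high gate, and 9.27, 1.45 and 1.68 CPM in naive libraries. The naive library with the highest value was the background-rich library A, and the treated libraries were all well above it (5.76 ± 0.45). BMP2, a bone morphogenetic protein ligand, rose from 3.24 ± 0.591 CPM (SD, n = 3) to 117 ± 38.9 CPM (SD, n = 5; log2 fold change 4.99 ± 0.36), and TGFB1 itself rose from 76.4 ± 23.6 to 191 ± 48.7 CPM (1.11 ± 0.28). With the low gate alone TGFB1 did not pass (edgeR adjusted p = 0.0537). All 4 latent TGF-β binding proteins rose: LTBP2 by 5.67 ± 0.30, LTBP3 by 2.05 ± 0.33, LTBP4 by 1.39 ± 0.28 and LTBP1 by 1.02 ± 0.19 on the log2 scale. The activin B subunit INHBB (−3.58 ± 0.33), the stress-induced ligand GDF15 (−3.88 ± 0.39) and BMP4 (−2.67 ± 0.22) fell, each with treated libraries that were all below the naive ones.

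**Figure D2:**
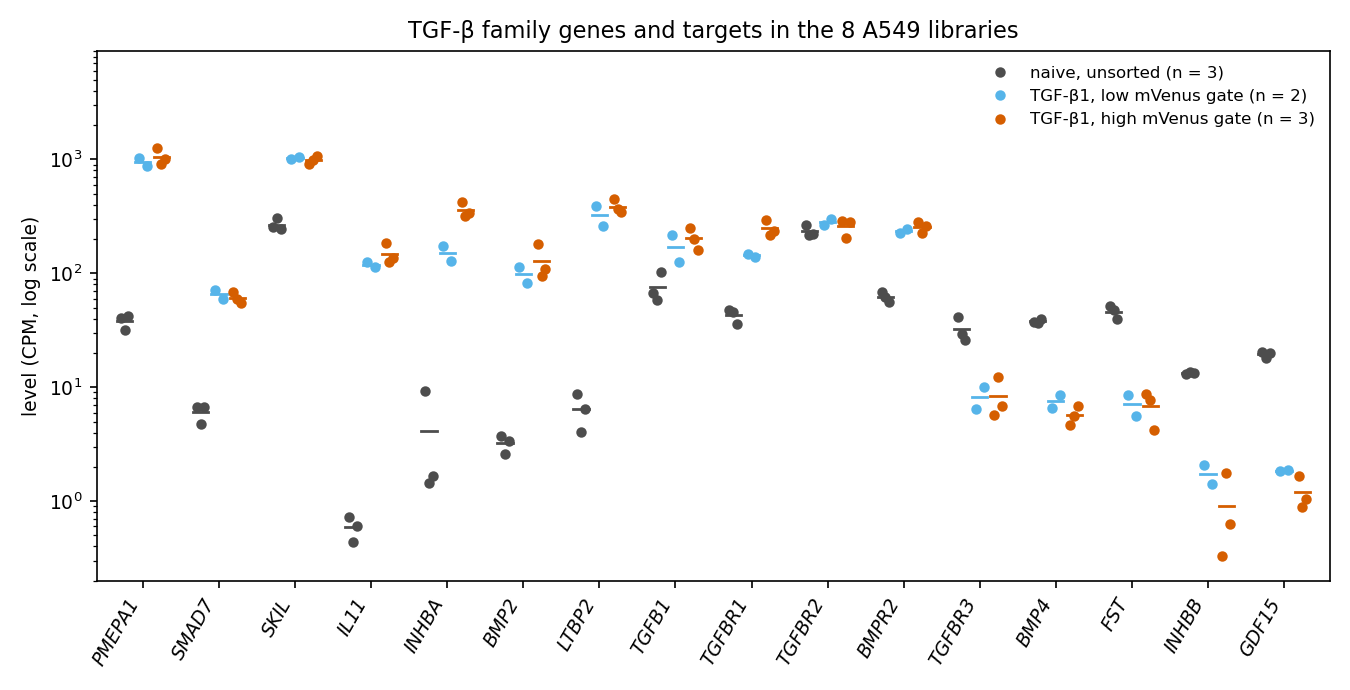
Levels of 16 TGF-β family genes and targets in the 8 A549 libraries, in CPM on a log axis; each point is a library, short lines are group means, and colours mark naive cells (n = 3), the low gate (n = 2) and the high gate (n = 3). IL11 lies at or below 0.725 CPM in naive and at or above 113 CPM in treated libraries, TGFBR2 overlaps, and BMP4, FST, INHBB and GDF15 lie lower in all 5 treated libraries.

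Among the receptors, 2 of 13 rose and 1 fell. TGFBR1, the type I receptor kinase, stood at 146 and 141 CPM in the low gate, 296, 218 and 237 CPM in the high gate and 47.5, 45.8 and 35.7 CPM in naive cells (1.99 ± 0.22). TGFBR2, its type II partner, stood at 265 and 299 CPM, at 287, 206 and 282 CPM, and at 263, 219 and 220 CPM in the same order. So TGFBR1 did not overlap between the groups, whereas TGFBR2 overlapped and did not pass the test (0.06 ± 0.22, edgeR adjusted p = 0.937). The BMP type II receptor BMPR2 rose (1.82 ± 0.21) and the co-receptor TGFBR3, also called betaglycan, fell (−2.11 ± 0.21).

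Inhibitors of the pathway were among the genes that rose. The list of SMADs and feedback inhibitors held 23 tested genes, of which 9 rose and 2 fell (4 without high library B, and 1 without low library C, high library C or naive library C). The inhibitory SMAD7 rose from 6.05 ± 1.11 CPM (n = 3) to 63.0 ± 7.10 CPM (n = 5; 3.24 ± 0.23), and PMEPA1, a membrane protein that sequesters receptor SMADs, from 38.2 ± 5.64 to 1011 ± 154 CPM (4.56 ± 0.29). The co-repressor SKIL (1.73 ± 0.23) and the ubiquitin ligases SMURF1 (0.98 ± 0.21) and SMURF2 (1.44 ± 0.19) rose too. The secreted BMP antagonist GREM1 rose (4.37 ± 0.32), as did another, NOG, with few reads (0.198 ± 0.0925 to 6.09 ± 2.20 CPM; 4.61 ± 0.70). FST, which binds activins, fell from 46.2 ± 5.76 to 6.96 ± 1.98 CPM (−2.93 ± 0.23). Of 12 BMP response genes 3 rose (2 to 3 when 1 library was left out) and 1 fell (0 to 2). ID3, a BMP-responsive inhibitor of differentiation factors, rose (1.19 ± 0.27). Its relative ID1 was lower in all treated libraries without passing the test (−0.71 ± 0.25, edgeR adjusted p = 0.0559). ID2 (0.09 ± 0.22) and ID4 (0.13 ± 0.38) did not pass either. The BMP-inducible SMAD6 was lower (−0.74 ± 0.24) with overlapping libraries, and the call was lost in 11 of 20 alternatives. It was lost with each gate alone, with the replicate letter as a block and without both background-rich libraries. It was also lost without low library C (−0.47), high library C (−0.71), naive library A (−0.68) or naive library C (−0.50).

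Matrix genes were among the highest folds. Of 34 collagens 13 rose and 3 fell, of 43 matrix glycoproteins and proteoglycans 17 rose and 7 fell, and of 39 matrix proteases and their inhibitors 16 rose and 4 fell. The fibril collagen COL5A1 stood at 558 and 368 CPM in the low gate, 579, 531 and 384 CPM in the high gate and 3.04, 0.145 and 1.52 CPM in naive cells (8.14 ± 0.44). COL22A1, a collagen of tissue junctions, reached 1865 CPM in treated library high A where naive libraries had 1.30 to 11.0 CPM (7.66 ± 0.46). COL1A1 rose (6.80 ± 0.42), and the basement membrane pair COL4A1 (5.95 ± 0.28) and COL4A2 (4.86 ± 0.31) rose while their relatives COL4A3 (−1.09 ± 0.20) and COL4A4 (−0.72 ± 0.17) fell. COL4A4 did not pass when no filter on low counts was used. The laminin chain LAMA3 fell from 105 ± 15.4 to 16.8 ± 4.90 CPM (−2.79 ± 0.18).

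Of 32 genes of collagen modification and export 6 rose and 1 fell (0 without low library C, naive library B or naive library C). P4HA3, a prolyl hydroxylase subunit for collagen, rose from 4.25 ± 2.12 to 118 ± 9.59 CPM (4.68 ± 0.28), and the cross-linking oxidase LOXL2 (2.15 ± 0.25) and the lysyl hydroxylase PLOD2 (1.43 ± 0.25) rose. The proteases ADAM19 (7.77 ± 0.38), ADAMTS6 (6.27 ± 0.41), HTRA1 (5.08 ± 0.34) and MMP2, or gelatinase A (5.08 ± 0.35), rose, and MMP7, or matrilysin, fell from 128 ± 32.1 to 1.76 ± 0.821 CPM (−6.47 ± 0.33). Proteoglycan SPOCK1 rose from 1.61 ± 1.75 to 303 ± 49.3 CPM (7.48 ± 0.40). The insulin-like growth factor binding proteins went opposite ways, with IGFBP7 up (6.90 ± 0.39) and IGFBP3 down from 758 ± 8.61 to 56.8 ± 21.1 CPM (−3.88 ± 0.26). Of 23 integrins 7 rose and 1 fell (4 without high library B): the collagen receptor ITGA11 went from 4.79 ± 3.02 to 558 ± 73.2 CPM (6.78 ± 0.34), the fibronectin receptor ITGA5 (2.94 ± 0.27) and ITGAV (1.91 ± 0.22) rose, and ITGB5 fell (−0.93 ± 0.22).

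Of 37 junction genes 16 fell, 6 rose and 15 did not pass the test. The number that fell was 10 without low library C, without naive library C, with the low gate alone and with the 8 libraries fitted by themselves. E-cadherin, CDH1 (chromosome 16, 68737225 to 68835548), stood at 3.39 and 2.81 CPM in the low gate, 0.333, 11.3 and 1.26 CPM in the high gate and 64.5, 58.3 and 67.1 CPM in naive cells. The treated value that stood highest was that of the background-rich high library B, and it was still below every naive value (−4.35 ± 0.46, edgeR adjusted p = 8.65e-06). Without that library the log2 fold change was −5.25. The pore-forming claudin CLDN2 (−4.71 ± 0.22), the cornified envelope protein PPL (−3.40 ± 0.31) and the desmosomal PERP (−2.05 ± 0.26) fell, while NECTIN4, an adhesion molecule, rose from 1.13 ± 0.727 to 26.5 ± 2.92 CPM (4.41 ± 0.33) and the desmocollin DSC2 rose (1.70 ± 0.20). Of 10 mesenchymal cadherins 6 rose and 1 fell: CDH11 went from 6.03 ± 6.58 to 582 ± 159 CPM (6.46 ± 0.45), and N-cadherin, CDH2, from 66.3 ± 3.40 to 425 ± 36.3 CPM (2.52 ± 0.24).

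Of 26 intermediate filament genes 5 rose and 7 fell, beside 7.77% and 11.5% of all genes tested. With the low gate alone 3 rose and 5 fell, and without high library B 6 rose and 10 fell. Among 11010 coding genes of at least 5 CPM 2117 were higher and 2394 lower, shares near those of this list. KRT18, a keratin of simple epithelium, fell from 3807 ± 253 to 823 ± 109.5 CPM (−2.39 ± 0.24) and its partner KRT8 fell (−1.96 ± 0.25). These 2 genes overlap on opposite strands, and the sources used here do not give how reads were assigned by strand. KRT19 (−3.96 ± 0.22) and KRT4, a keratin of mucosal surfaces (−6.27 ± 0.36), fell. KRT81, a hair keratin, rose from 3.87 ± 1.43 to 149.8 ± 19.8 CPM (5.17 ± 0.29), and KRT6A, a keratin of wounded epithelium, rose from 0.732 ± 0.901 to 112 ± 46.9 CPM (6.89 ± 0.48). VIM, the mesenchymal filament protein vimentin, rose (0.90 ± 0.24) but did not pass with the low gate alone or with no filter on low counts (highest edgeR adjusted p = 0.107).

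Of 21 EMT transcription factors 11 rose and 3 fell. SNAI2, a zinc finger repressor of E-cadherin, stood at 43.9 and 39.6 CPM in the low gate, 41.9, 38.3 and 37.9 CPM in the high gate and 2.75, 0.289 and 0.610 CPM in naive cells (4.93 ± 0.36). RUNX1 (3.26 ± 0.22), the chromatin protein HMGA2 (3.22 ± 0.27), SOX4 (2.46 ± 0.27) and ZEB1 (0.91 ± 0.19) rose. FOXC1 fell from 148 ± 20.7 to 33.9 ± 7.24 CPM (−2.34 ± 0.24), and TWIST1 fell at low levels, from 4.25 ± 0.862 to 1.71 ± 0.822 CPM (−1.56 ± 0.38). TWIST1 did not pass without low library A (−1.47) or low library C (−1.44), nor with the 8 libraries fitted by themselves. SNAI1 stood at 0.538 ± 0.160 CPM in naive and 2.11 ± 0.710 CPM in treated cells without passing the test (1.75 ± 0.93, edgeR adjusted p = 0.241). Of 17 epithelial factors 7 fell and 1 rose: the ETS factors SPDEF (−5.15 ± 0.52), EHF (−3.36 ± 0.25) and ELF3 (−3.28 ± 0.20) fell together, and the endoderm factor HNF4A rose from 24.95 ± 3.28 to 46.3 ± 6.51 CPM (0.70 ± 0.20). HNF4A did not pass with the low gate alone, with no filter on low counts or with the replicate letter as a block (highest edgeR adjusted p = 0.198).

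Contractile and stromal genes rose in part. Of 36 actin contractile and smooth muscle genes 13 rose and 3 fell, and the number risen was 20 without both background-rich libraries. TAGLN, an actin-binding protein of smooth muscle, rose from 3.04 ± 0.872 to 101 ± 27.2 CPM (4.95 ± 0.30), and TPM1, a tropomyosin, from 456 ± 28.8 to 3084 ± 313 CPM (2.61 ± 0.26). Smooth muscle actin, ACTA2, rose only to 9.76 ± 1.66 CPM (1.31 ± 0.33) and did not pass with no filter on low counts, and the myosin kinase MYLK fell (−2.51 ± 0.37). Markers of lung fibroblasts, a cell type that the culture should not hold, rose in 6 of 14 and fell in 1 (0 without low library A, low library C or naive library B); their summed level was 24.3 to 79.0 CPM in naive and 288 to 600 CPM in treated libraries. COL1A1 made up most of the treated sums, at 297 and 172 CPM in the low gate and 465, 383 and 286 CPM in the high gate. FAP, a membrane protease of activated fibroblasts (4.87 ± 0.61), and PDPN, podoplanin (4.30 ± 0.64), were among those that rose. So was LUM, the matrix proteoglycan lumican and a defining marker of fibroblasts, at 17.2 and 17.6 CPM in the low gate, 31.0, 25.1 and 40.5 CPM in the high gate and 2.90, 0 and 1.37 CPM in naive libraries (3.97 ± 0.48). The defining markers DCN, PDGFRA and PDGFRB stood at 1.66 to 21.7, 0.333 to 11.7 and 0 to 8.65 CPM over the treated libraries, each highest in the background-rich high library B, and at 14.5, 3.19 and 4.35 CPM in naive library A. The part of other cells in the result was not tested. Of 27 YAP and TEAD target genes 14 rose and 2 fell (1 without low library A or naive library B), with CCN1 (2.33 ± 0.26) and the nucleotidase NT5E (2.65 ± 0.27) higher and ANKRD1 lower (−1.02 ± 0.27, overlapping libraries). ANKRD1 did not pass without low library A (−0.83), naive library A (−0.87) or naive library B (−0.91). It also did not pass with the low gate alone or with the 8 libraries fitted by themselves.

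Genes of mucous secretion were among the lowest folds. Of 24 mucin and mucous secretory genes 11 fell and 0 rose. AGR2, which folds mucins in the endoplasmic reticulum, stood at 3.52 and 2.96 CPM in the low gate, 0, 2.88 and 1.15 CPM in the high gate and 864, 1417 and 1082 CPM in naive cells (−9.24 ± 0.41). MUC5AC fell from 1343 ± 560.4 to 2.72 ± 2.20 CPM and MUC5B from 804 ± 371 to 1.48 ± 1.66 CPM (−9.34 ± 0.54); the 2 gel-forming mucins lie side by side on chromosome 11 and resemble each other. CEACAM6, an adhesion molecule, was at 5.08 to 7.66 CPM in treated and 571 to 614 CPM in naive libraries (−6.78 ± 0.25), and the protease inhibitor SLPI fell (−6.46 ± 0.33). TFF1, a trefoil peptide, had 2 counts over the treated libraries, and the ratio of naive to treated CPM was 68.8 (95% counting interval 18.5 to 577).

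Liver-type genes also fell, 16 of 33 with 0 risen. The fibrinogen chains were 3 of them: FGB went from 264, 507 and 352 CPM in naive cells to 2.34 and 1.25 CPM in the low and 0, 2.66 and 0.838 CPM in the high gate. FGA (−7.02 ± 0.63) and FGG (−8.40 ± 0.70) fell beside it. Ceruloplasmin, CP (−5.08 ± 0.66), the urea cycle enzyme ASS1 (−3.50 ± 0.31) and the mitochondrial urea cycle enzyme CPS1 (−3.25 ± 0.21) fell too. The surfactant genes SFTPA1, SFTPB and SFTPC and the lung factor NKX2-1 did not reach the filter on low counts. ABCA3, another alveolar marker, stood at 18.7 to 40.3 CPM in treated and 30.1 to 47.4 CPM in naive libraries. Of 16 alveolar epithelial genes tested 2 rose and 3 fell (1 without low library C or naive library B), beside 7.77% and 11.5% of all genes.

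**Figure D3:**
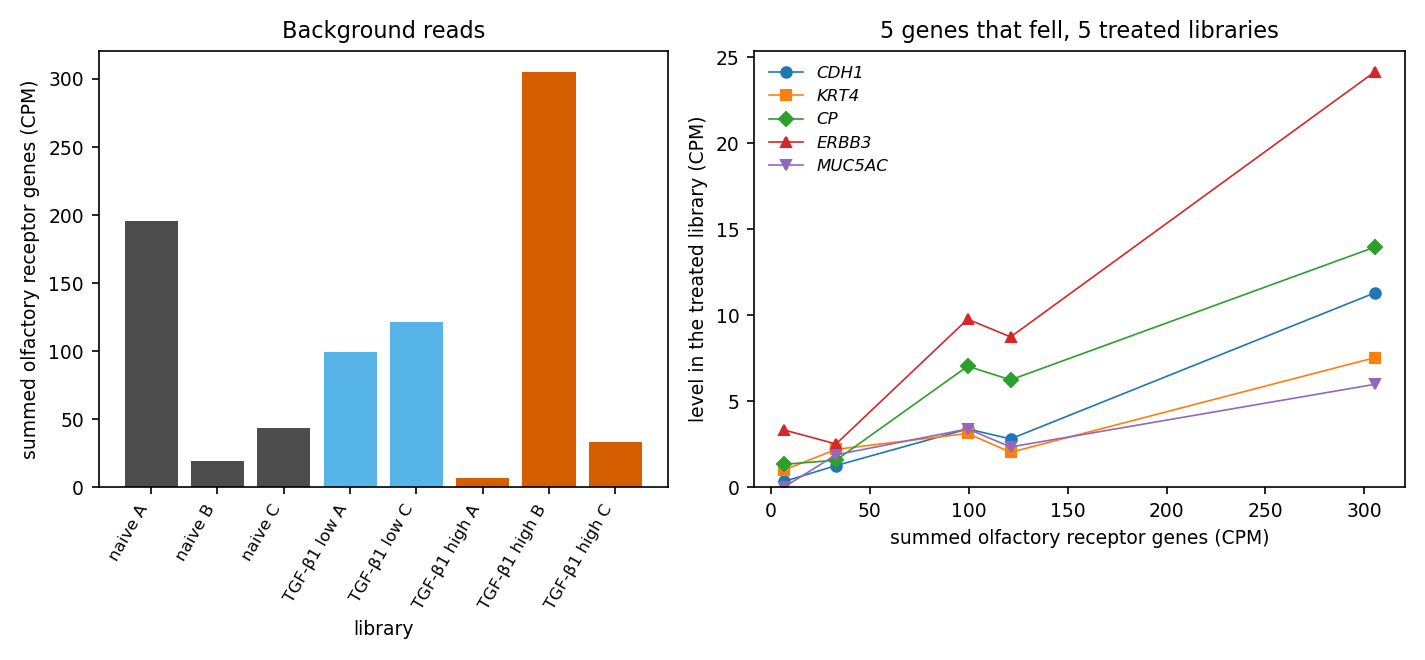
Left, summed level of the 374 olfactory receptor genes in each of the 8 libraries (CPM); right, levels of 5 genes that fell (CDH1, KRT4, CP, ERBB3 and MUC5AC, CPM) against the same measure in the 5 treated libraries, joined in order of background. The treated library with the most olfactory reads (305 CPM) holds the highest level of each of these 5 genes, from 5.99 CPM for MUC5AC to 24.2 CPM for ERBB3.

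The background-rich libraries bear on the size of the steepest folds. Of 52 genes that fell by at least 4 on the log2 scale, TGF-β1 high library B held the highest treated level in 36. Of 134 genes that rose by as much, naive library A held the highest naive level in 107. How often these libraries were highest over all tested genes was not counted, so neither count is particular to the steepest folds. Without both libraries the median log2 fold change of these falls went from −5.21 to −5.83 and that of the rises tested again from 4.80 to 5.82. All 52 falls and the 132 rises that were tested again passed without them. Of the genes described here, 22 moved by over 1.5 times when naive library A alone was left out, all to a higher fold. Of these, 18 kept over 3 naive counts. The matrix genes and adhesion molecules among them were ADAM19 (8.59 without it), ADAMTS6 (7.33), CDH11 (7.79), COL5A1 (9.04), COL22A1 (8.62), IGFBP7 (7.66), ITGA11 (7.39), LUM (4.99) and SPOCK1 (8.84). The secreted signals were INHBA (7.08), CCL2 (6.48), WNT5B (7.68) and WNT7A (5.48), and the others were CD274 (4.30), IFI44 (4.30), PDPN (5.96), RUNX2 (5.22) and SNAI2 (6.31). The other 4 kept 1 to 3 naive counts: the ratio of treated to naive CPM was then 457 (95% counting interval 81.8 to 18060) for FAP, 459 (82.3 to 18160) for ENSG00000269729, 488 (167 to 2370) for KRT6A and 24.7 (4.25 to 991) for MMP10. Without TGF-β1 high library B alone, 5 moved as far: CDH1 (−5.25), CP (−5.89), ERBB3 (−3.47), FGA (−8.02) and MUC5B (−10.01). SPDEF stood at −6.60 without low library A and THBS1-IT1, a non-coding gene, at 5.61 without naive library C.

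Genes of cell division were lower. Of 42 mitosis genes 41 fell and 0 rose, with a median log2 fold change of −1.14, and of 47 DNA replication genes 36 fell and 1 rose (0 without high library C or naive library C), with a median of −0.81. The proliferation antigen MKI67 stood at 528 and 461 CPM in the low gate, 474, 564 and 490 CPM in the high gate and 932, 1063 and 1318 CPM in naive cells, so the highest treated library lay well below the lowest naive one (−1.34 ± 0.22, edgeR adjusted p = 0.000146). The mitotic kinase gene CDK1 (−1.67 ± 0.26), the cyclin CCNB1 (−1.25 ± 0.23), thymidine kinase TK1 (−1.96 ± 0.23), the sliding clamp PCNA (−1.30 ± 0.25) and the factor E2F2 (−2.88 ± 0.27) fell. The fall of replication genes was called in 21 with the low gate alone and in 20 when the 8 libraries were fitted by themselves.

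Replication-dependent histone genes, which are read in S phase, fell further: 41 of 43 fell, 0 rose, and the median was −1.97. Their summed level was 8209 to 11061 CPM in naive and 2603 to 3715 CPM in treated libraries, without overlap. H2BC4 stood at 223 and 304 CPM in the low gate, 282, 207 and 303 CPM in the high gate and 672, 812 and 982 CPM in naive cells (−1.82 ± 0.25), and the lowest, H3C7, went from 57.4 ± 17.5 to 10.0 ± 2.13 CPM (−2.72 ± 0.26). Histone genes resemble each other closely and most of their RNA has no poly(A) tail; the kit used total RNA. Between 41 and 43 of them were called under each alternative setting run.

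Promoters of some of these genes are shown because many members, though not all, hold certain letters near their start. They are the 250 bases before the start in RefSeq (GRCh38.p14), with capitals at TTTGAA, the core of the cell cycle homology region, and at CCAAT, the letters read by NF-Y, each on either strand. The mitotic kinase PLK1 (chr16:23678639-23678888, plus strand) and cyclin B2, CCNB2 (chr15:59104896-59105145, plus strand), show both motifs, and the histone H2BC4 (chr6:26123927-26124176, minus strand) is marked for CCAAT alone.
PLK1: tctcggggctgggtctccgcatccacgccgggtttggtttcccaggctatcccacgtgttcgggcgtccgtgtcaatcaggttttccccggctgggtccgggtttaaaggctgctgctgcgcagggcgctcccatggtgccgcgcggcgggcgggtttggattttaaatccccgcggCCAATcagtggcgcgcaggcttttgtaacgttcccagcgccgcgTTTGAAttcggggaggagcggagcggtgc
CCNB2: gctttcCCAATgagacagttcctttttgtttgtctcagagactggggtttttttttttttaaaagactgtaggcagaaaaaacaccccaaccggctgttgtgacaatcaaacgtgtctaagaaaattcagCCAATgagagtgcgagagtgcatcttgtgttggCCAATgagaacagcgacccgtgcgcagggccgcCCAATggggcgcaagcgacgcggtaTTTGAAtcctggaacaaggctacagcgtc
H2BC4: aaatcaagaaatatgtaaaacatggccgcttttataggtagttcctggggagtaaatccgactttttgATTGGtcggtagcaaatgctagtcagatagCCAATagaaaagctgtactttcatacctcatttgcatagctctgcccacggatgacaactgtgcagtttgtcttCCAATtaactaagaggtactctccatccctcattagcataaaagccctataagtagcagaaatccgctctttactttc
In both PLK1 and CCNB2 the letters TTTGAA lie 29 to 24 bases before the start, with CCAAT further upstream at 73 to 69 bases in PLK1 and at 54 to 50 bases as the nearest of 4 in CCNB2. TTTGAA was found in 19 of the 36 promoters matched for mitosis genes (52.8%), against 13.6% of all 27305 promoters. CCAAT was found in 24 of those 36 (66.7%) and in 32 of 38 histone promoters (84.2%), against 33.0% of all. Matches describe letters and do not show binding, and their part in the falls was not tested. PLK1 fell from 162 ± 9.51 to 80.5 ± 12.2 CPM (−1.19 ± 0.22) and CCNB2 from 149.7 ± 21.9 to 66.5 ± 13.7 CPM (−1.32 ± 0.23).

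Regulators of the cycle did not all fall with it. Of 25 cyclins, CDK inhibitors and p53 targets 6 rose and 5 fell (3 without low library A, naive library B or naive library C). CDKN1A, the p21 inhibitor, stood at 91.2 and 61.3 CPM in the low gate, 167, 96.2 and 114 CPM in the high gate and 5.94, 5.06 and 4.57 CPM in naive cells. Cyclin D1, CCND1, rose from 451 ± 59.8 to 1398 ± 299 CPM (1.42 ± 0.25) and its kinase CDK6 rose (1.20 ± 0.21), while cyclin D3, CCND3, fell (−1.88 ± 0.26). The p53 target TP53I3 rose (3.83 ± 0.25). MYC, a growth factor-responsive transcription factor, was at 124 to 213 CPM in treated and 149 to 179 CPM in naive libraries and did not pass the test (−0.13 ± 0.22, edgeR adjusted p = 0.840).

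Of 46 NRF2 target genes, which serve glutathione, NADPH and detoxification, 35 fell and 1 rose, with a median of −1.34. GPX2 (chromosome 14, 64939152 to 64942905), a glutathione peroxidase of epithelia, stood at 1.17 and 1.87 CPM in the low gate, 1.33, 1.33 and 0.524 CPM in the high gate and 411, 425 and 360 CPM in naive cells, hence far lower in each treated library (−8.56 ± 0.30, edgeR adjusted p = 1.10e-12). The glutathione synthesis pair GCLC (−1.94 ± 0.20) and GCLM (−1.33 ± 0.22), the cystine carrier SLC7A11 (−0.91 ± 0.21), the quinone reductase NQO1 (−1.40 ± 0.25) and ferritin light chain FTL (−1.94 ± 0.26) fell. NFE2L2, the gene of NRF2, fell from 114 ± 7.99 to 76.7 ± 6.12 CPM (−0.73 ± 0.18) and did not pass without naive library B (−0.56), with the low gate alone, with no filter on low counts or with the 8 libraries fitted by themselves. The exception was HMOX1, heme oxygenase 1, at 68.6 and 45.4 CPM in the low gate, 57.9, 34.8 and 45.2 CPM in the high gate and 5.80, 5.64 and 6.86 CPM in naive cells (2.92 ± 0.30).

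The promoters of GPX2 (chr14:64942746-64942995, minus strand) and GCLM (chr1:93909431-93909680, minus strand) are shown because NRF2 is known to bind the antioxidant response element. They come from the same RefSeq table and length, with capitals at the core letters TGACNNNGC on either strand; the RefSeq start of GPX2 lies inside the gene bounds given above.
GPX2: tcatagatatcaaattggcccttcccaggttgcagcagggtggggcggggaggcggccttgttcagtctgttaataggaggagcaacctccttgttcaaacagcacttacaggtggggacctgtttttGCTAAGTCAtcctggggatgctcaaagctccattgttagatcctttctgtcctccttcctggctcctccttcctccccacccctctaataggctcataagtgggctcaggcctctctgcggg
GCLM: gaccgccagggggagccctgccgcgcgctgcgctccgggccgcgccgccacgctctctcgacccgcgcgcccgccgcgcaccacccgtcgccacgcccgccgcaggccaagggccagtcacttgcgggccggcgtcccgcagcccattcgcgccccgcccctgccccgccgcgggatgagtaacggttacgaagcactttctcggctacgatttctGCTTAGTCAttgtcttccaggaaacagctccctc
The match lies 122 to 114 bases before the start in GPX2 and 34 to 26 bases before it in GCLM, on the other strand in both. These letters were in 8 of the 34 promoters matched on the list (23.5%) and in 11.0% of all promoters. NQO1 showed no match in this window, which says only that the letters are not in these 250 bases.

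**Figure D4:**
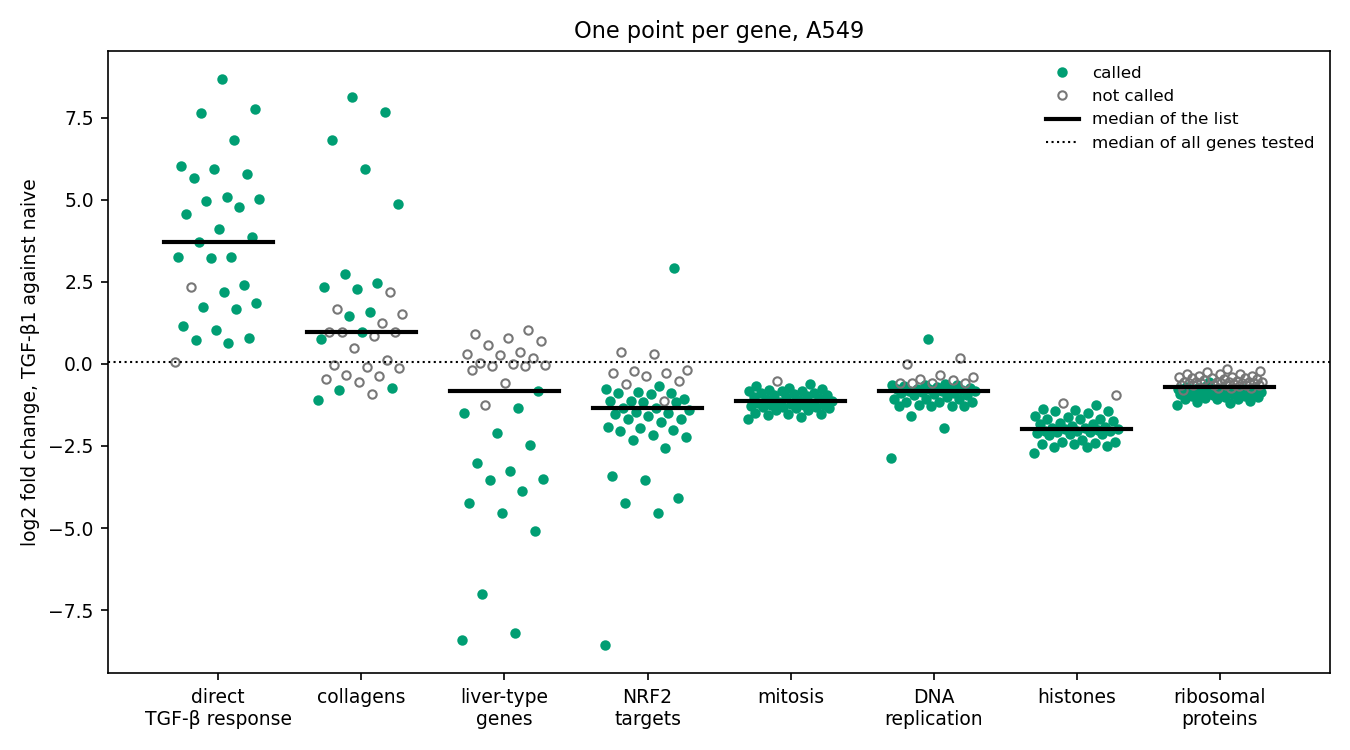
Log2 fold change of each tested member of 8 gene lists in A549, TGF-β1 against naive cells; filled points passed the test, open points did not, thick lines are list medians and the dotted line is the median of all genes (0.05). Collagens and liver-type genes spread widely, while mitosis genes, histones and ribosomal protein genes each keep within a narrow band below 0.

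Ribosomal protein genes were lower by smaller amounts. Of 78 members 38 fell and 0 rose, with a median of −0.71. This count depended on the libraries: it was 63 without both background-rich libraries, 20 without low library A, 11 without naive library B, 19 without naive library C, 8 with the low gate alone and 7 when the 8 libraries were fitted by themselves. Their summed level was 54315 to 69863 CPM in naive libraries, 31953 CPM in the background-rich TGF-β1 high library B and 41996 to 48927 CPM in the other treated libraries. Between sorted TGF-β1 and sorted GSK126 libraries 0 of the 78 were higher and 1 was lower. Of 30 glycolysis and hypoxia genes 13 fell (5 with the low gate alone and 7 without naive library B) and 2 rose; CA12, a carbonic anhydrase, fell from 1040 ± 64.9 to 81.9 ± 22.8 CPM (−3.82 ± 0.22). Of 26 lipid genes 4 rose (2 without high library A) and 7 fell (3 without low library A, 4 without low library C or naive library B), with the glycerolipid enzyme GPAM higher (4.48 ± 0.26) and the carnitine transferase CPT1A (−2.16 ± 0.22) and the nuclear receptor PPARG (−2.23 ± 0.19) lower.

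Secreted signals rose in part: of 37 cytokine, chemokine and growth factor genes 19 rose and 4 fell. The chemokines CCL2 (0.925 ± 0.831 to 46.0 ± 7.62 CPM; 5.48 ± 0.37) and CXCL8 (10.9 ± 0.987 to 202 ± 39.8 CPM; 4.04 ± 0.31) rose, as did IL6 (3.52 ± 0.38). The EGF receptor ligand HBEGF (4.42 ± 0.28), the ERBB3 ligand NRG1 (2.75 ± 0.23), the vascular factor VEGFA (2.38 ± 0.26) and PDGFB (4.76 ± 0.44) rose. The death ligand TNFSF10 (−1.70 ± 0.42) and IL18 (−1.33 ± 0.20) fell; TNFSF10 did not pass without low library A (−1.74), low library C (−1.49) or naive library B (−1.58). On the receptor side 8 of 31 tyrosine kinases rose and 5 fell (2 without low library C, 3 without naive library C): EGFR (1.46 ± 0.22), AXL (1.11 ± 0.26) and RET (0.938 ± 0.696 to 27.6 ± 10.7 CPM; 4.53 ± 0.40) rose, and ERBB3 (−2.69 ± 0.48), FGFR4 (−2.43 ± 0.24) and FGFR3 (−2.46 ± 0.51) fell. ERBB3 did not pass without low library A (−2.60) or low library C (−2.50), and stood at −3.47 without high library B.

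Other pathways moved in both directions. Of 32 WNT genes 8 rose and 9 fell. The ligands WNT5B (5.77 ± 0.66) and WNT7A (4.36 ± 0.36) rose, whereas the receptor FZD7 (−3.28 ± 0.37), the inhibitor DKK1 (−2.97 ± 0.26) and the R-spondin receptor LGR4 (−2.30 ± 0.20) fell. In the Notch pathway, with 3 of 16 risen and 3 fallen, the receptor NOTCH3 fell from 272 ± 95.3 to 11.9 ± 3.23 CPM (−4.81 ± 0.31) and the ligand JAG1 rose from 96.0 ± 12.02 to 521 ± 42.8 CPM (2.29 ± 0.22). Among 30 interferon-stimulated genes 5 rose and 6 fell, with IFI44 higher (3.23 ± 0.55) and OAS1 lower (−2.22 ± 0.21). The immune checkpoint ligand CD274 rose (3.02 ± 0.40) while the immunoproteasome subunits PSMB8 (−1.54 ± 0.24) and PSMB9 (−1.82 ± 0.50) fell. Of 13 genes of the polycomb complex PRC2 and of H3K27 demethylases 2 rose, the demethylase KDM6B (3.08 ± 0.33) and the PRC2 cofactor JARID2 (2.37 ± 0.22), and 2 fell, among them EZH2 (−0.83 ± 0.21). Without naive library B the values were −0.69 for EZH2 and −1.77 for PSMB9, and neither passed. EZH2 also did not pass with the low gate alone or with the 8 libraries fitted by themselves. PSMB9 also did not pass without low library A (−1.95), low library C (−1.52) or naive library C (−1.76). The same held for PSMB9 with the low gate alone and with the 8 libraries fitted by themselves.

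The highest fold belonged to genes that were nearly silent in naive cells. IGFL3, an insulin growth factor-like gene (chromosome 19, 46120071 to 46124674), had 4 counts over the naive and 4874 over the treated libraries, a ratio of 797 (95% counting interval 311 to 2926). LCE3D, a late cornified envelope gene of skin, measured 40.5 and 32.3 CPM in the low gate, 129, 95.1 and 127 CPM in the high gate and 0, 0.289 and 0 CPM in naive cells; its 2 naive counts gave a ratio of 833 (230 to 6878). Its neighbour LCE3E had 1 naive count, which gave a ratio of 544 (97.4 to 21517). Naive library C held 3 of the 4 naive counts of IGFL3 and the only one of LCE3E, and naive library B held both of LCE3D. Without library C the ratio for IGFL3 was 2161 (388 to 85390). LCE3 genes and IGFL genes resemble their relatives, so reads could be split between copies. SLAMF9, an immune receptor, had 2 naive counts and stood at 11.1 to 21.5 CPM in treated libraries. At the other end, the salivary cystatin CST1 had 3 counts over the treated libraries and 14.8 ± 2.26 CPM in naive cells, a ratio of naive to treated of 153 (52.0 to 748), or 173 (47.6 to 1438) without low library A. Intervals cover counting error only, because PCR copies of a molecule are counted as if independent. Among non-coding genes ENSG00000269729, with no symbol in the tables used, rose from 0.241 ± 0.302 to 33.1 ± 3.93 CPM (6.84 ± 0.44), and THBS1-IT1 rose (4.95 ± 0.64), which lies within THBS1 on the same strand, itself risen (3.75 ± 0.26).

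The gates of low and high reporter were compared to see whether their mean hides a difference. In edgeR's test 0 of 19842 genes passed (0%), and 198 genes (0.998%) had an unadjusted p under 0.05; DESeq2 called 17, and edgeR called 62 without both background-rich libraries and 6 without high library B alone. The number with an unadjusted p under 0.05 was 1631 of 19175 without high library B and 2411 of 16977 without both libraries, against 137 to 408 when another single library was left out. Without high library B, olfactory reads summed to 6.66 and 33.0 CPM in the high gate and 99.5 and 121 CPM in the low gate. Gate and background cannot be told apart in those fits. INHBA (1.27 ± 0.41), KRT6A (1.21 ± 0.38) and LCE3D (1.71 ± 0.31) had every high-gate library above both low-gate libraries without passing the test (lowest edgeR adjusted p = 0.555). They were picked after their values were seen, and the share of all genes with this order was not counted. Against naive cells 2433 genes were called with the low gate alone and 3308 with the high gate alone. With 2 low-gate libraries, depth and the number of libraries limit what this comparison can show.

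The GSK126 libraries were sorted as well, so they were set beside the treated ones. Between TGF-β1 and GSK126 3907 genes (19.7%) passed edgeR's test, 1590 higher (8.01%) and 2317 lower (11.7%). This comparison shares the 5 treated libraries with the main one. Genes of division were lower under TGF-β1: 41 of 42 mitosis genes, 38 of 47 replication genes and 41 of 43 histone genes were lower and 0 were higher. NRF2 targets were lower in 34 of 46 and higher in 0, and direct TGF-β response genes were higher in 26 of 31 and lower in 0. COL22A1 stood at 5.65 ± 3.55 CPM under GSK126 (n = 5), TAGLN at 3.30 ± 1.67 CPM and ITGA11 at 4.03 ± 2.64 CPM, each close to its naive mean. IL11 under GSK126 stood between its naive and TGF-β1 means, at 8.77 CPM against 0.589 and 137 CPM. So did ADAM19 (52.2 against 3.12 and 738 CPM), AGR2 (254 against 1121 and 2.10 CPM) and GPX2 (99.5 against 398.5 and 1.25 CPM). The share of genes in between was not counted. Others stood near the TGF-β1 level: SNAI2 at 36.9 ± 4.84 CPM against 40.3 ± 2.53 CPM, with a difference of 0.04 ± 0.22 on the log2 scale (edgeR adjusted p = 0.916), and HMOX1 at 46.3 ± 10.5 CPM against 50.4 ± 13.1 CPM (0.04 ± 0.22, edgeR adjusted p = 0.906). AXL, which rose against naive cells under TGF-β1 (1.11), stood higher still under GSK126. Its level was 508 ± 122 CPM under GSK126 and 149.8 ± 23.96 CPM under TGF-β1 (−1.89 ± 0.23).

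**Figure D5:**
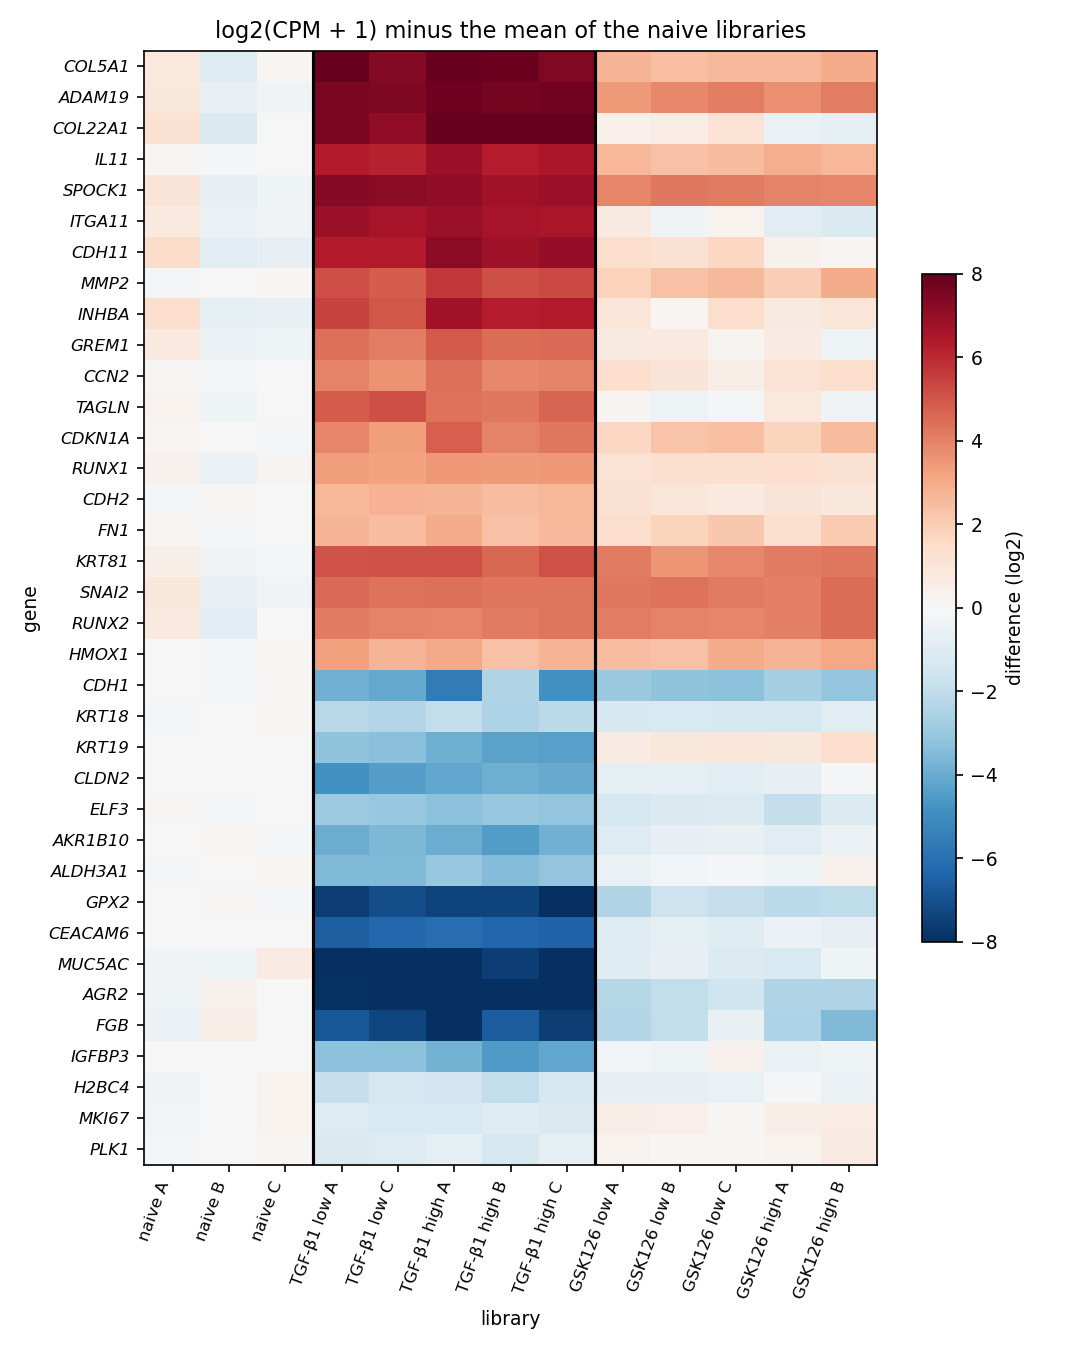
Level of 36 genes in each of 13 A549 libraries as the difference of log2(CPM + 1) from the mean of the 3 naive libraries; colours run from −8 (blue) to 8 (red), values beyond are shown at the end colour, and vertical lines part naive, TGF-β1 and GSK126 libraries. SNAI2, RUNX2, KRT81 and HMOX1 are red in both treatments, while COL22A1, ITGA11 and TAGLN are red in the 5 TGF-β1 libraries and near white in the GSK126 ones.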

How the data were processed

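The table held whole-number counts per gene for each library, which the authors deposited unnormalized; per the submitters' processing notes the tools were bcl2fastq 2.20.0, STAR 2.6.0c and HTSeq 0.12.3 with GRCh38. Per the labels' protocols, libraries were made from total RNA with a stranded kit; the sources used here do not give the strand setting of the counting. Libraries of the other line, H1944, enter the test between lines and the alternative fit of all 28 libraries.

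Counts were fitted with edgeR 4.0.16 in R 4.3.3 (quasi-likelihood test, TMM scaling, default filter on low counts, Benjamini-Hochberg at 0.05 over 19842 genes) across all 13 A549 libraries in 5 groups, and the mean of the gates was set against naive cells. The reporter row was left out of counts of called genes. Total counts per library, 3004125 to 9550143 in the 8 compared, set the precision. On simulated data with known changes, set only in genes of over 5 CPM, the test recovered 4.48% of 1.5-fold, 53.7% of 2-fold and 89.4% of 4-fold changes. Recovery in genes of lower level was not simulated. Libraries of a group differed beyond counting noise, which does not show that they are separate cultures. Each library was counted once.

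The members, the 42 gene lists and the tests were chosen with earlier results of these data known. Named genes are the 12 largest rises and 12 largest falls among called coding genes of at least 2 CPM whose libraries do not overlap, the 6 members of each list with the smallest adjusted p, all members of lists of up to 15, key genes and 6 lncRNAs; not all are described, and a few are not reported here. Other genes named were chosen after their values were seen. Alternatives were RLE scaling, other filters, DESeq2 1.42.0, limma 3.58.1 with voom, a replicate block, other sets of libraries, single gates, and leaving out libraries. Promoters and motif letters were read from RefSeq (GRCh38.p14).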

Additional observations from a re-analysis of the deposited data

Results flagged for a closer look

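The study treated a second human lung cancer line, H1944, in the same design, and one edgeR fit of both lines tested whether the effect of TGF-β1 against naive cells differed between them. Of 25 key genes 15 differed past an adjusted p of 0.05, against 20% of all 17918 genes tested. Values are log2 differences, H1944 minus A549, and edgeR adjusted p-values. 

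Of the key genes, 5 of matrix, adhesion and cytoskeleton had the higher effect in H1944. Matrix genes outside the key genes went the other way, among them COL4A1 (−2.06 ± 0.22), COL22A1 (−2.41 ± 0.48) and SPOCK1 (−1.88 ± 0.53). For FN1, fibronectin, the log2 effect was 9.93 in H1944 and 2.54 in A549, a difference of 7.39 ± 0.32 (edgeR adjusted p = 5.45e-18). For ACTA2, smooth muscle actin, the log2 effect was 5.64 in H1944 and 1.33 in A549, a difference of 4.31 ± 0.36 (edgeR adjusted p = 6.64e-11). For CDH2, N-cadherin, the log2 effect was 6.60 in H1944 and 2.58 in A549, a difference of 4.02 ± 0.27 (edgeR adjusted p = 4.24e-13). For VIM, vimentin, the log2 effect was 3.23 in H1944 and 0.96 in A549, a difference of 2.27 ± 0.23 (edgeR adjusted p = 4.17e-09). For CCN2, matricellular protein, the log2 effect was 6.29 in H1944 and 3.93 in A549, a difference of 2.36 ± 0.28 (edgeR adjusted p = 5.56e-08).

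The key genes TGFB1, TGFBR1, TGFBR2, SMAD7 and ZEB1 also had the higher effect in H1944, whereas the pathway genes GREM1 (−4.10 ± 0.63), LTBP2 (−1.40 ± 0.27) and TGFBR3 (−0.78 ± 0.28), outside the key genes, had the lower one. These 3 and the 3 matrix genes above were chosen after their values were seen, and their highest edgeR adjusted p was 0.0446. For TGFB1, the ligand itself, the log2 effect was 4.32 in H1944 and 1.18 in A549, a difference of 3.13 ± 0.34 (edgeR adjusted p = 1.90e-08). For TGFBR1, type I receptor, the log2 effect was 3.87 in H1944 and 2.04 in A549, a difference of 1.84 ± 0.25 (edgeR adjusted p = 1.10e-06). For TGFBR2, type II receptor, the log2 effect was 1.42 in H1944 and 0.11 in A549, a difference of 1.31 ± 0.23 (edgeR adjusted p = 6.21e-05). For SMAD7, inhibitory SMAD, the log2 effect was 4.27 in H1944 and 3.29 in A549, a difference of 0.99 ± 0.25 (edgeR adjusted p = 0.00379). For ZEB1, EMT repressor, the log2 effect was 2.16 in H1944 and 0.97 in A549, a difference of 1.18 ± 0.20 (edgeR adjusted p = 3.16e-05).

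The other key genes went either way. For CDKN1A, p21, the log2 effect was 2.28 in H1944 and 4.14 in A549, a difference of −1.86 ± 0.31 (edgeR adjusted p = 3.06e-05). For EPCAM, epithelial adhesion molecule, the log2 effect was −3.03 in H1944 and −1.47 in A549, a difference of −1.55 ± 0.30 (edgeR adjusted p = 0.000164). For MKI67, proliferation antigen, the log2 effect was −0.17 in H1944 and −1.26 in A549, a difference of 1.09 ± 0.21 (edgeR adjusted p = 0.000163). For MYC, growth regulator, the log2 effect was −0.82 in H1944 and −0.07 in A549, a difference of −0.75 ± 0.22 (edgeR adjusted p = 0.0114). For NFE2L2, NRF2, the log2 effect was −0.02 in H1944 and −0.67 in A549, a difference of 0.65 ± 0.20 (edgeR adjusted p = 0.0197). No labelled group held 4 to 10 libraries, so single outlying libraries were not looked for by that rule of spread.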

How the results depend on the processing

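Of the genes described, 170 were followed through the alternative settings, and 166 of them were called. Among the called genes 153 were called under each alternative run for the gene, 13 lost the call under 1 or more, and 0 changed direction. The number called in the main comparison was 3821 and stayed within 1.5 times of it except with limma-voom and sample weights (7921) and the low gate alone (2433); leaving out 1 library gave 2750 to 4580, and the replicate block gave 3119. Between libraries of the same letter, deviations from the group mean had r from −0.75 (TGF-β1 high B and naive B) to 0.14 (TGF-β1 low C and high C). The 2 background-rich libraries, of different letters, had r = 0.79. Such deviations are taken from means of 2 or 3 libraries and cannot show or exclude pairing. The letters were not read as pairs. Between the gates 0 genes became 3 with no filter, 17 with DESeq2 and 62 without both background-rich libraries; leaving out 1 library gave 0 to 6. Against GSK126 3907 became 2495 with no filter, and leaving out 1 library gave 2207 to 4364. The uncalled MYC (log2 fold change −0.13) stood at 0.084 with the low gate alone, and leaving out 1 library gave −0.23 to 0.036. The uncalled TGFBR2 (0.06) ran from −0.0216 to 0.187 when 1 library was left out. The cause of these shifts was not tested. Where an arm was left with 1 library, that library was assumed to vary like the others. Depth and 2 to 3 libraries per group limit what small changes can show. Few 1.5-fold changes were recovered on simulated data, in which far fewer genes were changed than were called here.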
